A study of Homo sapiens with 14 samples.

Results

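The 38 genes described here encode heat shock chaperones of the cytosol and the mitochondria, their co-chaperones and the transcription factors that induce them. They are listed by name, and the list was drawn up with earlier results of these data known: 5 HSP70 proteins, 3 HSP110 exchange factors, 6 J-domain proteins, 2 BAG proteins, 2 HSP90 proteins, 6 HSP90 co-chaperones, 4 subunits of the cytosolic chaperonin, 5 mitochondrial chaperones, 3 small heat shock proteins and 2 heat shock factors. All 38 were found in each table of counts, among 57904 features for the hairpin knockdown, 57905 for the degradation time course and 20243 for the R219S comparison.

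Chaperones keep newly made and damaged proteins from aggregating and help them fold. HSP70 binds short stretches of an unfolded client; J-domain proteins deliver the client and stimulate the HSP70 ATPase, and HSP110 and BAG proteins exchange its nucleotide. HSP90 takes over clients that are nearly folded, among them steroid receptors such as the androgen receptor of prostate cells, with the help of co-chaperones. The barrel-shaped chaperonin TRiC folds actin and tubulin, and HSPD1 with its lid HSPE1 does the like work inside mitochondria. Many of these genes are induced by the heat shock factor HSF1, which binds inverted repeats of the letters GAA called heat shock elements.

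Expression was measured by RNA sequencing in the human prostate cancer cell line 22Rv1, in 7 groups of 2 libraries each. The shFOXA1 cells carried a lentiviral hairpin against FOXA1, a forkhead factor that opens chromatin for the androgen receptor in luminal prostate cells, and the shCtrl cells a control lentivirus. Cells with the FOXA1_dTAG genotype, in which the FOXA1 protein carries a tag that a small molecule can send to degradation, were sampled at 0 h, 1 h and 24 h. A further pair of groups shared that genotype and was labelled R219S, for a mutated FOXA1, and WT. The labels say that the dTAG, R219S and WT cells had either dTAG or DMSO, but not which of these the R219S and WT libraries received, and no 24 h vehicle group is listed. For shCtrl, the line is 22Rv2 in the library titles and 22Rv1 in the other labels. It is not stated whether a group's libraries came from separate cultures or whether a line was 1 clone; p-values therefore reflect only how far these libraries spread, which may be technical.

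In the RefSeq promoter table (GRCh38.p14; 250 bases before to 50 after a gene's start), 33 of the 38 genes have 46 windows. Pairs of facing heat shock units, GAANNTTC or TTCNNGAA (each is its own reverse complement, so 1 reading covers both strands), were found in 19 of the 46 windows, 41.3%, and in 13.5% of all 35116 windows. Runs of 3 units, in which a pair is extended by a further facing unit after any 2 bases (the first pair by NNGAA or the second by NNTTC, forms that are reverse complements of each other), overlap the pairs and were found in 7 of the 46, 15.2%, and in 0.49% of all windows. The 7 genes with a run of 3 were CHORDC1, DNAJA1, DNAJB6, HSP90AA1, HSP90AB1, HSPA8 and HSPD1. The forkhead letters TGTTTAC, searched on both strands, were found in 1 member window, that of HSP90AA1, and in 3.42% of all windows. These matches describe letters in the windows and were not tested as binding sites. Shown first are 4 genes with runs of 3 units, then 3 genes with pairs only. In R219S cells HSPD1 fell and the other genes shown rose. For HSPD1, 1 of 2 windows is shown, and for DNAJB1, 1 of 3. Each of these 2 genes also has a window without a match. Sequences run 5′ to 3′, and the capitals mark the matched heat shock letters.

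HSPA8, chr11:123062087-123062386, minus strand: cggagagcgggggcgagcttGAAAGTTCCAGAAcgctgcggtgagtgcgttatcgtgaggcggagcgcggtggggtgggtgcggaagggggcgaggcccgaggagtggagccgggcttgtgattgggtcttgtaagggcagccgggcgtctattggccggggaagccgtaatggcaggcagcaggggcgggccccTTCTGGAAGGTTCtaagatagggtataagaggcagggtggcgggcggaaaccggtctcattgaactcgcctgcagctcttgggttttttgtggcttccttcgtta

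CHORDC1, chr11:90223000-90223299, minus strand: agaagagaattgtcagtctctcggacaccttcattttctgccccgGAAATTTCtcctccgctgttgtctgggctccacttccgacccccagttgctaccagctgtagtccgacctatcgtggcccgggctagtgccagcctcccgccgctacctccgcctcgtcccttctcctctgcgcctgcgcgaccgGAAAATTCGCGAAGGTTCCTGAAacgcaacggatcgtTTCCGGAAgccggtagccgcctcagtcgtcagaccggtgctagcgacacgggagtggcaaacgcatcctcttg

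DNAJA1, chr9:33025023-33025322, plus strand: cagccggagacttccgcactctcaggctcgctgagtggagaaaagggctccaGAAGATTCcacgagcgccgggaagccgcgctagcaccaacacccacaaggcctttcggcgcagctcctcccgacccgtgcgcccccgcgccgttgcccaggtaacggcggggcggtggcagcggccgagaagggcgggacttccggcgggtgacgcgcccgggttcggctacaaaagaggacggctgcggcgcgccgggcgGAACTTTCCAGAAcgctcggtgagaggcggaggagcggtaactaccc

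HSPD1, chr2:197499791-197500090, minus strand: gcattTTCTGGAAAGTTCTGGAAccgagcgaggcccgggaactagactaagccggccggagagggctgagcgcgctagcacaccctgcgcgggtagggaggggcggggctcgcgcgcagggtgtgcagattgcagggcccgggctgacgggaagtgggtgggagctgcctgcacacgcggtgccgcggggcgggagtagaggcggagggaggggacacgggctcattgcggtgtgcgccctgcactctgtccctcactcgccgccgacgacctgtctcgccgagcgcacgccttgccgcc

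HSPA1B, chr6:31827488-31827787, plus strand: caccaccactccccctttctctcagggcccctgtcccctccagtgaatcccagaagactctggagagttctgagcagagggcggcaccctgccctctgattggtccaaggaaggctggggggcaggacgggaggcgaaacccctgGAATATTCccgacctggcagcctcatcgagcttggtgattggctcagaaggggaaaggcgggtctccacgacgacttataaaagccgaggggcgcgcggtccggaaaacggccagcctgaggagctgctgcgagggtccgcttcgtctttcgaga

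DNAJB1, chr19:14518348-14518647, minus strand: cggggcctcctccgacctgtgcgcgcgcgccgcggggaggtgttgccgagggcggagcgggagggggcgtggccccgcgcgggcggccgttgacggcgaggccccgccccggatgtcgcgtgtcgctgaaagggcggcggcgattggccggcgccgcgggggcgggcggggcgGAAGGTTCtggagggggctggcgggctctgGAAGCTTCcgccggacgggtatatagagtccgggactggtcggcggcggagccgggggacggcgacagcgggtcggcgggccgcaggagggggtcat

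HSPB8, chr12:119178681-119178980, plus strand: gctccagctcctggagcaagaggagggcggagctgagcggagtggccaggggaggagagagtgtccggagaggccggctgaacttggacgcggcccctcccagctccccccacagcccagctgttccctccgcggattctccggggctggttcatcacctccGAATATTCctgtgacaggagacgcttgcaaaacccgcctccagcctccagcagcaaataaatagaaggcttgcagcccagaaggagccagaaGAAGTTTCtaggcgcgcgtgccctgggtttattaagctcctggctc

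In the HSPD1 window the units run together in a stretch that starts 245 bases before the gene's start, whereas in DNAJA1 the run of 3 lies just past the start.

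Library totals ran from 21560090 to 38465155 counts. FOXA1 mRNA, a check of the hairpin label, was 299 and 305 CPM (counts scaled to libraries of equal size with TMM factors, within each comparison) in shFOXA1 cells and 402 and 435 CPM in shCtrl cells, a log2 fold change of -0.47 ± 0.062 (SE, n = 2 each, adjusted p = 0.000275). It was 703 and 681 CPM in R219S cells against 1019 and 1032 CPM in WT cells, and 171 and 168 CPM at 0 h, 170 and 168 CPM at 1 h, and 203 and 195 CPM at 24 h; degradation acts on the protein, so mRNA does not check the dTAG labels. All 7 luminal prostate markers were detected in every group. Summed endothelial markers reached at most 0.499 CPM and leukocyte markers ran from 1.31 to 4.16 CPM. Fibroblast markers summed to 505 and 517 CPM in R219S cells and 224 and 217 CPM in WT cells, with 4 of 5 markers detected and COL1A2 at 0 in these 4 libraries, against 19.0 to 30.1 CPM in all other libraries; their part in the R219S results was not tested. In these bulk libraries, fewer cells of a kind and less RNA per cell cannot be told apart.

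Levels were compared between genes per exon length, in TPM, which corrects for transcript length and library size. HSP90AB1, the constitutive HSP90, was the highest of the 38 in every group, with a mean of 1491 to 2487 TPM. In 0 h cells it had 1748 and 1757 TPM, followed by HSPD1 with 867 and 881 TPM, HSP90AA1, the inducible HSP90, with 761 and 759 TPM, HSPA8, the constitutive cytosolic HSP70, with 691 and 701 TPM, and HSPB1, a small heat shock protein, with 560 and 579 TPM. None of these neighbouring levels overlapped between the 2 libraries. In WT cells HSPB1, at 814 and 887 TPM, stood above HSPA8, at 761 and 752 TPM. At the low end, CRYAB, the small heat shock protein alpha-B crystallin, had group means of 0.171 to 7.71 TPM, HSPA1A 0.992 to 3.55 TPM and HSPA4L 2.69 to 26.2 TPM, and at 24 h HSPA4L, at 2.69 TPM, was below CRYAB, at 7.71 TPM. Together the 38 genes made up 6515 and 6709 TPM at 24 h, 7943 and 7981 TPM at 1 h and 7960 and 8084 TPM at 0 h, so the summed level at 24 h lay below both earlier times.

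Some of these levels depend on how reads were assigned. HSPA1A and HSPA1B encode a nearly identical inducible HSP70, and HSPA1A held only 0.751% to 1.99% of the pair's counts in each library, so the split between them is uncertain. HSPE1 had 31.7 to 55.1 CPM (of the unscaled library total) in the knockdown and time course libraries but 4.88 to 6.71 in the R219S and WT libraries. The R219S and WT libraries were counted over 20243 features, and whether their counting differed in other ways is not stated. For HSPE1, 26 annotated pseudogenes carry its name and its exons overlap HSPE1-MOB4. Annotated exons also overlap on the opposite strand for 42.4% of STUB1 (with JMJD8), 30.1% of CCT5, 29.3% of TRAP1 (with DNASE1) and 20.6% of CRYAB (with HSPB2). The pair HSPE1 and HSPD1 overlap each other in this way, over 14.2% of the HSPE1 exons and 6.62% of the HSPD1 exons. The part of HSPD1 reads in the HSPE1 counts was not tested. On the same strand, 36.5% of the HSPA1B exons overlap the processed transcript AL671762.1. The strand setting of the counting is not given in the sources used here. HSPB2 had at most 2 counts in a library.

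After 24 h of FOXA1 degradation, most of the chaperone network fell. Of the 38 members, 28 fell and 4 rose at an adjusted p under 0.05, against 24.8% of all 19607 genes tested lower, 22.1% higher and 46.9% in either direction. For 35 members the libraries of the times did not overlap, against 70.8% of all genes. The median log2 fold change of the members was -0.37, and that of all genes tested was 0.0056. The mitochondrial chaperones (5 of 5), the chaperonin subunits (4 of 4), the HSP110 exchange factors (3 of 3) and the HSP90 pair (2 of 2) all fell, with 5 of 6 HSP90 co-chaperones, 4 of 6 J-domain proteins and 3 of 5 HSP70 proteins. The rises were in the small heat shock proteins CRYAB and HSPB8, in the J-domain protein DNAJB2 and in HSF1.

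**Figure D1:**
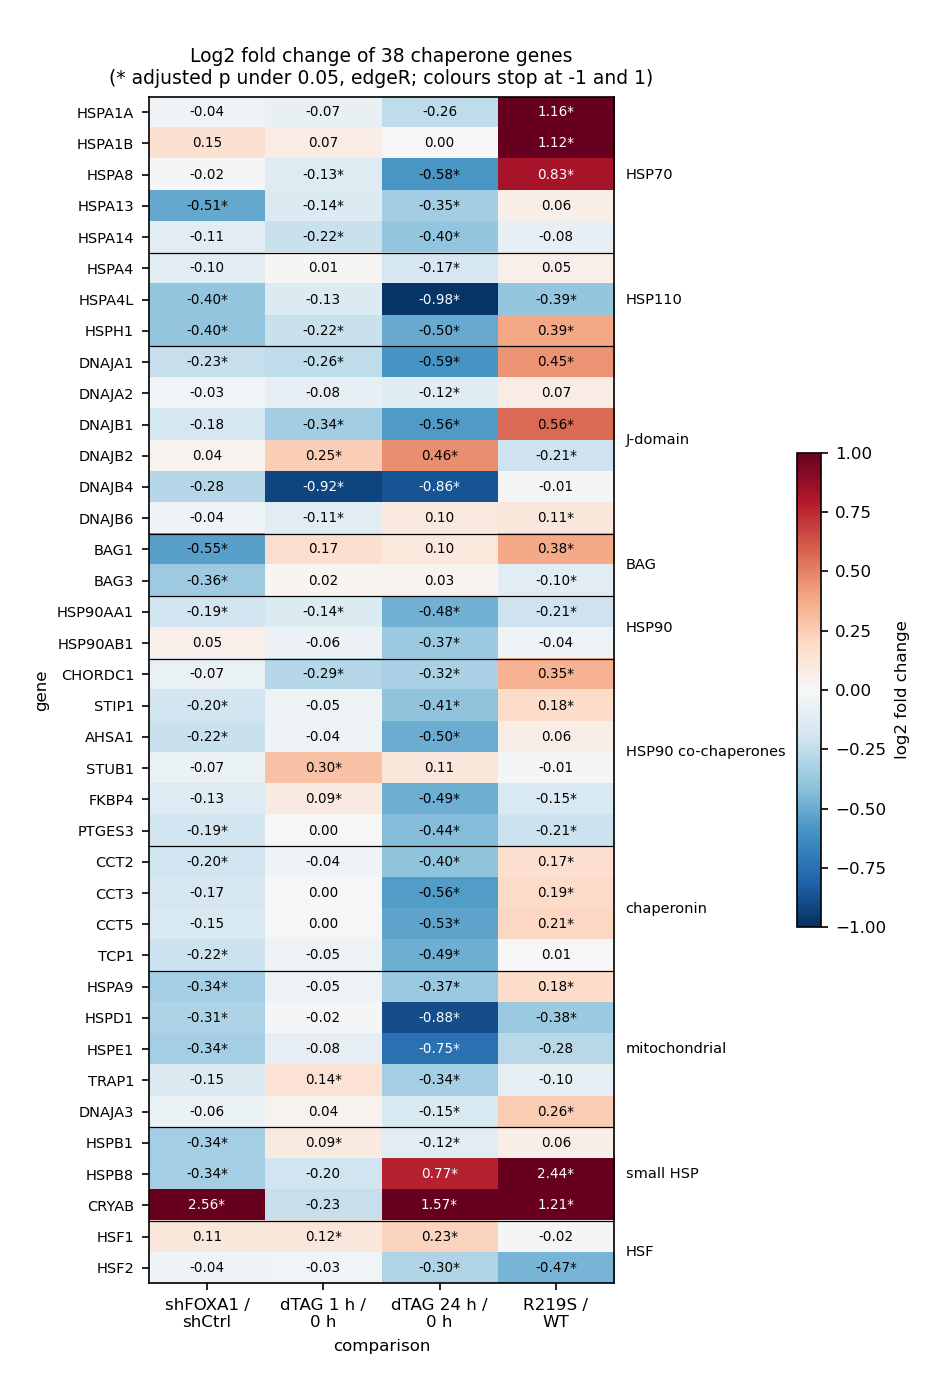
Log2 fold change of each of the 38 genes (rows, grouped by family) in 4 comparisons (columns); blue is lower and red higher in the group named first, and an asterisk marks an adjusted p under 0.05 by edgeR. The column for 24 h is mostly blue, with CRYAB, HSPB8, DNAJB2 and HSF1 called higher. In the R219S column HSPA1A, HSPA1B, HSPA8, HSPB8 and CRYAB are deep red.

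The folding chamber of the mitochondrion showed the largest change among the abundant genes. HSPD1 had 652 and 677 CPM at 24 h, against 1218 and 1236 CPM at 0 h, a log2 fold change of -0.88 ± 0.034 (adjusted p = 5.95e-20). HSPE1, its lid, had 31.1 and 33.2 CPM at 24 h, against 52.5 and 55.7 CPM at 0 h (-0.75 ± 0.060, adjusted p = 4.14e-12). Neither gene's libraries overlapped between the times. The other mitochondrial members fell less: HSPA9, the HSP70 that pulls proteins into the matrix, changed by -0.37 ± 0.034, TRAP1, the mitochondrial HSP90, by -0.34 ± 0.044, and the mitochondrial J-domain protein DNAJA3 by -0.15 ± 0.045.

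In the cytosolic HSP70 system, HSPA8 had 750 and 744 CPM at 24 h, against 1109 and 1125 CPM at 0 h (-0.58 ± 0.033, adjusted p = 1.37e-15). The inducible HSPA1B had 98.3 and 100 CPM at 24 h, against 100 and 98.2 CPM at 0 h; the groups overlapped and the change was 0.0038 ± 0.043 (adjusted p = 0.954). The constitutive gene was thus lower in both 24 h libraries and the inducible gene was not. HSPA4L, an HSP110 exchange factor, fell most of all members, with 9.16 and 9.57 CPM at 24 h, against 18.1 and 18.9 CPM at 0 h (-0.98 ± 0.093, adjusted p = 2.11e-10). Among J-domain proteins, DNAJB4 had 16.9 and 18.0 CPM at 24 h, against 29.9 and 33.8 CPM at 0 h (-0.86 ± 0.078, adjusted p = 6.34e-11). Both stood apart between the times. DNAJA1, a major HSP70 partner, had 217 and 222 CPM at 24 h, against 326 and 334 CPM at 0 h (-0.59 ± 0.037, adjusted p = 1.51e-14). DNAJB1, the heat-inducible J-domain protein, had 75.5 and 79.0 CPM at 24 h, against 113 and 115 CPM at 0 h (-0.56 ± 0.044, adjusted p = 2.83e-12). These 3 J-domain genes were below their 0 h levels in every 24 h library. DNAJB2, a J-domain protein that can steer clients to the proteasome, moved the other way, by 0.46 ± 0.044 (adjusted p = 2.16e-10). The exchange factors BAG1 and BAG3 did not pass the test, at 0.10 ± 0.079 and 0.031 ± 0.052.

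The HSP90 arm and the chaperonin fell as well. HSP90AA1 had 926 and 969 CPM at 24 h, against 1322 and 1318 CPM at 0 h (-0.48 ± 0.034, adjusted p = 2.31e-13). HSP90AB1 had 1316 and 1348 CPM at 24 h, against 1723 and 1732 CPM at 0 h (-0.37 ± 0.032, adjusted p = 2.77e-11). The libraries of the 2 times stood apart for both genes. The 5 co-chaperones that fell ranged from -0.50 for AHSA1, which activates the HSP90 ATPase, to -0.32 for CHORDC1; FKBP4, an immunophilin of steroid receptor complexes, changed by -0.49 ± 0.038, PTGES3, the p23 co-chaperone, by -0.44 ± 0.036, and STIP1, the adaptor between HSP70 and HSP90, by -0.41 ± 0.039. STUB1, a ubiquitin ligase that marks chaperone clients, did not pass (0.11 ± 0.054, adjusted p = 0.0949). TCP1, a chaperonin subunit, had 189 and 206 CPM at 24 h, against 274 and 279 CPM at 0 h (-0.49 ± 0.041, adjusted p = 1.17e-11). The other chaperonin subunits lay between -0.56 for CCT3 and -0.40 for CCT2.

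CRYAB and HSPB8 are small heat shock proteins that hold unfolded proteins without ATP. CRYAB had 7.01 and 7.02 CPM at 24 h, against 2.15 and 2.56 CPM at 0 h (1.57 ± 0.16, adjusted p = 9.51e-10). HSPB8, which works with BAG3, had 37.0 and 33.7 CPM at 24 h, against 21.4 and 20.2 CPM at 0 h (0.77 ± 0.072, adjusted p = 1.55e-10). For both genes the 24 h libraries lay above the 0 h libraries. HSPB1, the abundant member of the family, had 299 and 269 CPM at 24 h, against 303 and 313 CPM at 0 h (-0.12 ± 0.041, adjusted p = 0.0229). HSPB1 was only slightly lower in both libraries. HSF1 had 110 and 101 CPM at 24 h, against 94.1 and 86.4 CPM at 0 h (0.23 ± 0.048, adjusted p = 0.000224), while HSF2, a related factor, changed by -0.30 ± 0.079.

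Of the 32 calls at 24 h, 27 held under every alternative. HSPB1 lost its call without dTAG_24h replicate 2 (-0.037, adjusted p = 0.575; -0.19 without replicate 1) and without dTAG_0h replicate 2 (adjusted p = 0.169), DNAJA2, a J-domain protein at -0.12, without dTAG_24h replicate 1 (-0.056, adjusted p = 0.475; -0.20 without replicate 2) and without dTAG_0h replicate 2 (adjusted p = 0.0974), and DNAJA3 without dTAG_24h replicate 1 (-0.094, adjusted p = 0.189), while HSPA4, an HSP110 factor at -0.17, stood at -0.069 (adjusted p = 0.0878), HSF2 at -0.11 (adjusted p = 0.253) and DNAJA2 turned to 0.039 (adjusted p = 0.471) with a correction for GC content and transcript length.

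**Figure D2:**
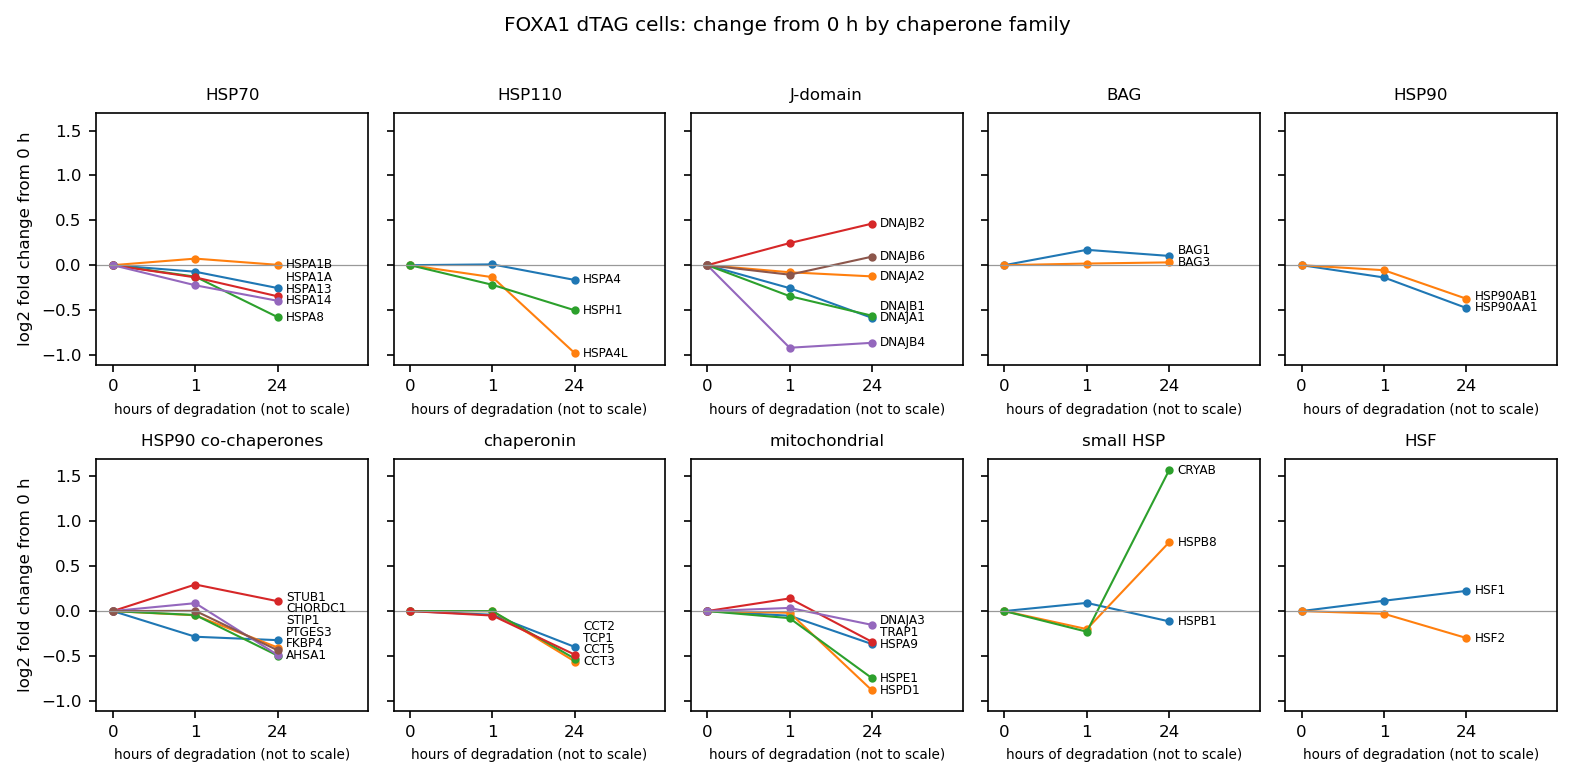
Log2 fold change from 0 h (vertical axis) at 0, 1 and 24 h of FOXA1 degradation (horizontal axis, not to scale), 1 line per gene and 1 panel per family. The chaperonin lines stay near 0 at 1 h and lie between -0.56 and -0.40 at 24 h, whereas DNAJB4 is already at -0.92 at 1 h.

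After 1 h of degradation fewer members changed, mainly in the HSP70 system. Of the 38 members, 10 fell and 6 rose, against 9.12% of all 19397 genes lower, 10.7% higher and 19.8% in either direction, with a median of -0.048 for the members and 0.00074 for all genes. The libraries of the times did not overlap for 28 members, against 56.4% of all genes. The falls included 4 of 6 J-domain proteins and 3 of 5 HSP70 proteins. Of the 4 chaperonin subunits, 0 passed the test by edgeR, 0 by DESeq2 and 0 had an unadjusted p under 0.05, although CCT2 was called without dTAG_0h replicate 1 (-0.090, adjusted p = 0.00388).

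DNAJB4 changed most, with 16.8 and 16.9 CPM at 1 h, against 29.9 and 33.8 CPM at 0 h (-0.92 ± 0.073, adjusted p = 2.47e-18). DNAJB1 had 90.6 and 89.4 CPM at 1 h, against 113 and 115 CPM at 0 h (-0.34 ± 0.039, adjusted p = 9.54e-12). DNAJA1 had 283 and 271 CPM at 1 h, against 326 and 334 CPM at 0 h (-0.26 ± 0.030, adjusted p = 5.01e-11). In these 3 genes both 1 h libraries lay below both 0 h libraries. The J-domain gene DNAJB2 went the other way. It had 94.0 and 92.9 CPM at 1 h, against 78.5 and 79.0 CPM at 0 h (0.25 ± 0.041, adjusted p = 1.52e-06). HSPA8 had 1027 and 1018 CPM at 1 h, against 1109 and 1125 CPM at 0 h (-0.13 ± 0.025, adjusted p = 3.67e-05). HSPA14, an HSP70-like protein that works at the ribosome, had 45.2 and 41.9 CPM at 1 h, against 51.5 and 50.2 CPM at 0 h (-0.22 ± 0.053, adjusted p = 0.000712). The constitutive and the ribosome-linked HSP70 genes were lower in both libraries. HSPH1, the heat-inducible HSP110, had 64.8 and 73.0 CPM at 1 h, against 81.2 and 79.0 CPM at 0 h (-0.22 ± 0.046, adjusted p = 0.000144). The groups did not overlap for any of these genes.

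In the HSP90 arm, CHORDC1 had 41.4 and 43.0 CPM at 1 h, against 50.5 and 52.4 CPM at 0 h (-0.29 ± 0.052, adjusted p = 1.12e-05). STUB1 had 72.8 and 82.1 CPM at 1 h, against 63.1 and 63.0 CPM at 0 h (0.30 ± 0.047, adjusted p = 6.26e-07). JMJD8, whose exons overlap those of STUB1, had 24.6 and 26.7 CPM at 1 h, against 20.4 and 21.5 CPM at 0 h (of the unscaled library total). Its part in the STUB1 counts was not tested. HSP90AA1 had 1201 and 1201 CPM at 1 h, against 1322 and 1318 CPM at 0 h (-0.14 ± 0.024, adjusted p = 7.14e-06). HSP90AA1 and CHORDC1 were lower and STUB1 higher in both 1 h libraries. HSP90AB1 had 1663 and 1664 CPM at 1 h, against 1723 and 1732 CPM at 0 h, a difference that did not pass the test (-0.056 ± 0.024, adjusted p = 0.0939). TCP1, at 268 and 267 CPM at 1 h, against 274 and 279 CPM at 0 h, did not pass either. The same held for HSPD1, at 1210 and 1213 CPM at 1 h, against 1218 and 1236 CPM at 0 h, and for HSPE1, at 52.2 and 50.3 CPM at 1 h, against 52.5 and 55.7 CPM at 0 h. These genes lay within 0.079 of their 0 h levels on the log2 scale. HSF1 had 96.8 and 98.8 CPM at 1 h, against 94.1 and 86.4 CPM at 0 h (0.12 ± 0.041, adjusted p = 0.035).

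The calls of HSPA8, HSP90AA1, DNAJA1, DNAJB1, DNAJB2, DNAJB4 and CHORDC1 at 1 h held under every alternative, and the other 9 did not. Replicate 1 of dTAG_1h decided the call of HSPH1 (-0.13 and adjusted p = 0.151 without it), replicate 2 that of HSPA14 (adjusted p = 0.107 without it), and HSF1 was not called without either of these (adjusted p = 0.132 and 0.292) or without dTAG_0h replicate 2 (0.054, adjusted p = 0.463; 0.18 without dTAG_0h replicate 1), and with the correction for GC content and length STUB1 stood at 0.10 (adjusted p = 0.133) and HSF1 at -0.050 (adjusted p = 0.44).

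The times could also be set against each other directly, in a joint fit of the 6 time course libraries. At 24 h against 1 h, 26 members were lower and 5 higher, against 24.5% of all 20027 genes lower, 21.2% higher and 45.7% in either direction. The libraries did not overlap for 33 members, against 70.8% of all genes. The chaperonin (4 of 4), mitochondrial (5 of 5) and HSP90 (2 of 2) groups all fell in this interval: TCP1 changed by -0.44 ± 0.036, HSPD1 by -0.87 ± 0.028 and HSP90AB1 by -0.32 ± 0.027. HSPA8 fell further by -0.45 ± 0.028 and DNAJB1 by -0.22 ± 0.042. DNAJB4 did not differ beyond the test's threshold between 24 h and 1 h (0.053 ± 0.082, adjusted p = 0.641; 0.22, adjusted p = 0.0219, with the correction for GC content and length), and neither did CHORDC1 (-0.040 ± 0.055, adjusted p = 0.601). CRYAB and HSPB8 rose in this interval, by 1.8 ± 0.17 and 0.97 ± 0.072. The 24 h against 0 h, 1 h against 0 h and 24 h against 1 h values share libraries and are not independent.

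**Figure D3:**
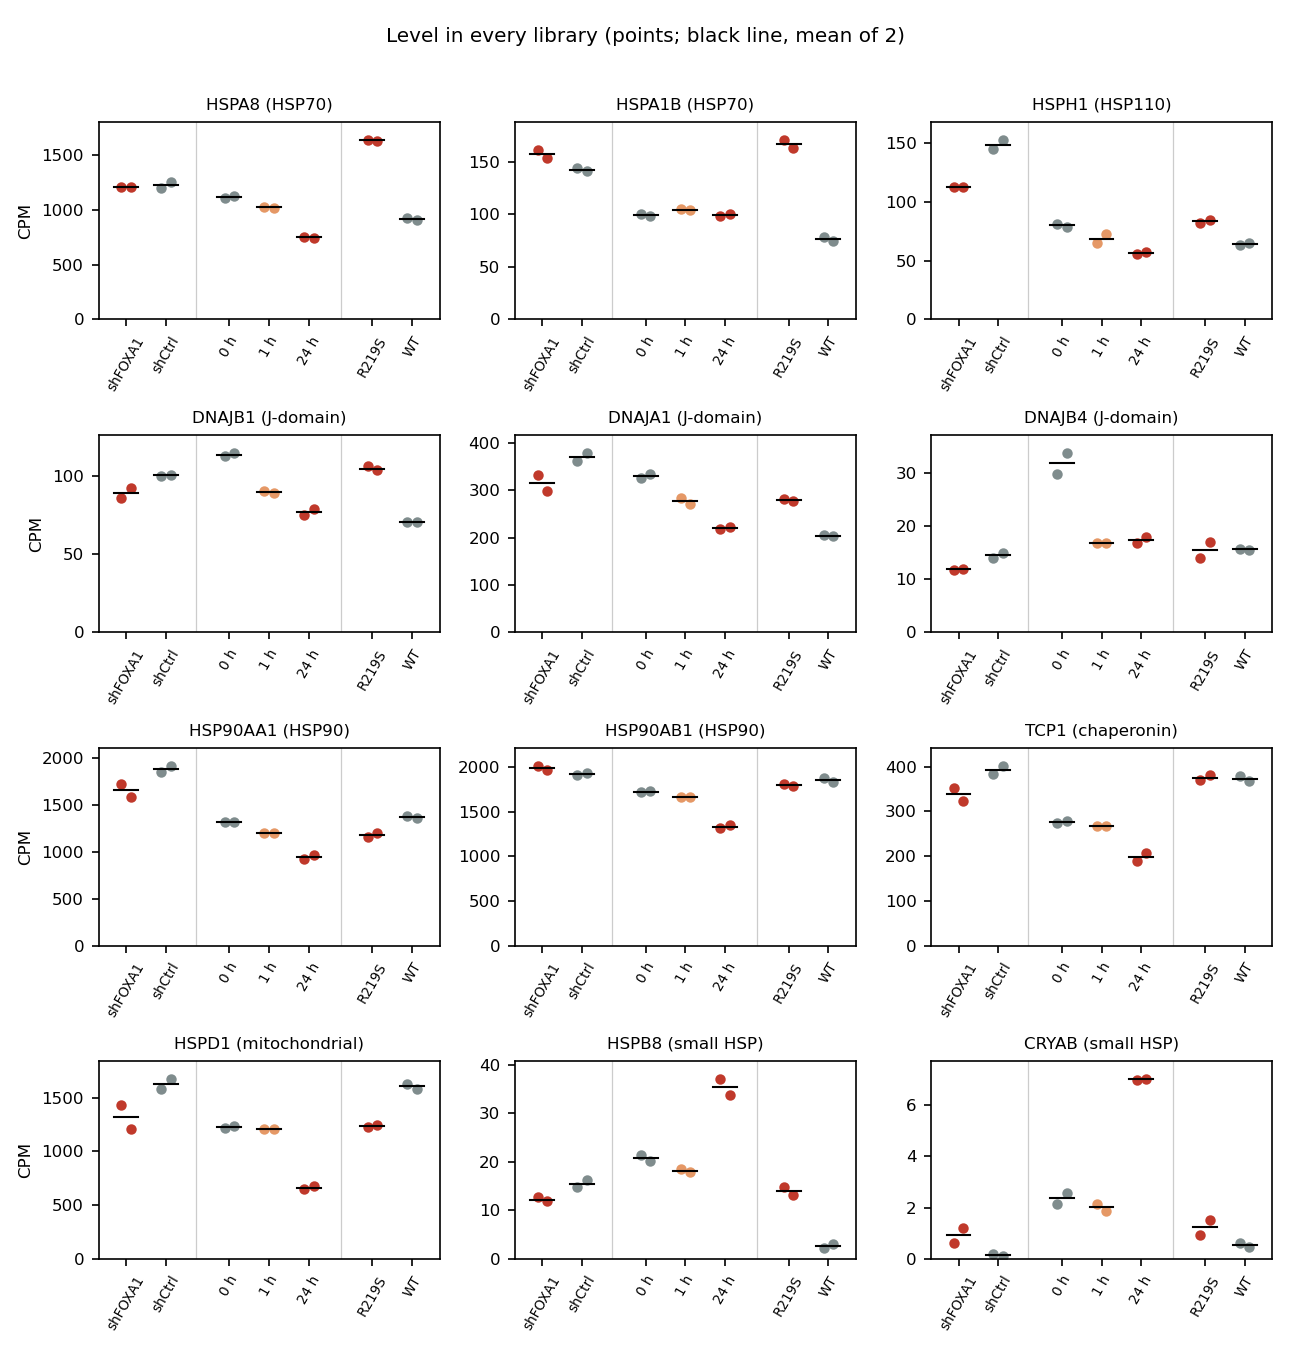
CPM of 12 genes (vertical axes, from 0) in each of the 14 libraries; points are libraries and the black line is the mean of 2, with red for shFOXA1, 24 h and R219S, orange for 1 h and grey for shCtrl, 0 h and WT. HSPA8 is lower at each later time and stands at 1637 and 1626 CPM in R219S cells, above every other library; the 3 tables were normalized separately.

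Hairpin knockdown was also followed by lower chaperone mRNA levels. Of the 38 members, 17 fell and 1 rose, against 12.3% of all 19128 genes lower, 11.3% higher and 23.6% in either direction, with a median of -0.17 for the members and 0.010 for all genes. The falls took in both BAG proteins, 2 of 3 HSP110 factors, 3 of 5 mitochondrial chaperones, 3 of 6 HSP90 co-chaperones and 2 of 4 chaperonin subunits. Neither heat shock factor passed the test, and HSF1 had 97.9 and 103 CPM in shFOXA1 cells and 92.9 and 92.8 CPM in shCtrl cells (0.11 ± 0.062, adjusted p = 0.219).

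CRYAB had the largest change, from very few reads: 22 and 41 counts, or 0.634 and 1.22 CPM, in shFOXA1 cells, against 7 and 4 counts, or 0.202 and 0.109 CPM, in shCtrl cells (2.56 ± 0.55, adjusted p = 0.00532). BAG1, which links HSP70 to the proteasome, had 102 and 94.4 CPM in shFOXA1 cells and 133 and 153 CPM in shCtrl cells (-0.55 ± 0.076, adjusted p = 0.000494). HSPA13, a microsomal HSP70-like protein, had 49.7 and 50.5 CPM in shFOXA1 cells and 69.2 and 73.7 CPM in shCtrl cells (-0.51 ± 0.068, adjusted p = 0.000284). HSPH1 had 113 and 113 CPM in shFOXA1 cells and 145 and 153 CPM in shCtrl cells (-0.40 ± 0.061, adjusted p = 0.000784). In all 4 genes the groups stood apart. HSPA4L had 76.4 and 61.6 CPM in shFOXA1 cells and 89.9 and 91.7 CPM in shCtrl cells (-0.40 ± 0.092, adjusted p = 0.0126). BAG3, which recruits HSP70 to protein aggregates, had 34.0 and 33.5 CPM in shFOXA1 cells and 40.5 and 46.2 CPM in shCtrl cells (-0.36 ± 0.084, adjusted p = 0.00844). HSPB8 had 12.7 and 11.8 CPM in shFOXA1 cells and 14.8 and 16.2 CPM in shCtrl cells (-0.34 ± 0.11, adjusted p = 0.0417). These genes too did not overlap between groups, as 31 of the 38 did not, where 63.4% of all genes tested did not.

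Among the mitochondrial chaperones, HSPE1 had 41.7 and 40.2 CPM in shFOXA1 cells and 51.4 and 52.4 CPM in shCtrl cells (-0.34 ± 0.071, adjusted p = 0.00473). HSPD1 had 1430 and 1205 CPM in shFOXA1 cells and 1587 and 1673 CPM in shCtrl cells (-0.31 ± 0.079, adjusted p = 0.0174), and its spread was wider among the shFOXA1 libraries than among the shCtrl libraries. Both genes were lower in both shFOXA1 libraries. HSP90AA1 had 1727 and 1586 CPM in shFOXA1 cells and 1859 and 1916 CPM in shCtrl cells (-0.19 ± 0.062, adjusted p = 0.0454). TCP1 had 352 and 323 CPM in shFOXA1 cells and 384 and 401 CPM in shCtrl cells (-0.22 ± 0.064, adjusted p = 0.0269). For these genes every shFOXA1 library was below every shCtrl library. HSPA8, at 1210 and 1205 CPM in shFOXA1 cells and 1198 and 1257 CPM in shCtrl cells, did not pass the test (-0.023 ± 0.059, adjusted p = 0.814). HSP90AB1, at 2013 and 1973 CPM in shFOXA1 cells and 1913 and 1933 CPM in shCtrl cells (0.052 ± 0.057), and DNAJB1, at 85.9 and 92.7 CPM in shFOXA1 cells and 100 and 101 CPM in shCtrl cells (-0.18 ± 0.064, adjusted p = 0.067), did not pass either.

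The knockdown calls depended on single libraries and on the correction for GC content and length. With that correction, 5 members lost their call and 3 gained one. Among those lost were HSP90AA1 (adjusted p = 0.0605, edgeR) and TCP1 (adjusted p = 0.0549). Without shCtrl replicate 2, 4 members were lower (HSPD1 -0.27, adjusted p = 0.151; HSPE1 adjusted p = 0.0767; HSPA4L 0.065; BAG3 0.195; HSPB8 0.361; HSP90AA1 0.378; TCP1 0.31), and 8.56% of all genes were called; without shCtrl replicate 1, 9 were lower (HSPB8 adjusted p = 0.114; HSP90AA1 0.203; TCP1 0.118), and without shFOXA1 replicate 2 or 1, 14 and 22 were, with HSPD1 at -0.18 (adjusted p = 0.0076), HSPA4L at -0.25 and HSP90AA1 at -0.12 (adjusted p = 0.0946) without shFOXA1 replicate 2. HSPA13, HSPB1, HSPH1 and BAG1 were lower under every alternative, and CRYAB was higher in each one that gave it an adjusted p.

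The 24 h change and the knockdown change were compared in a joint fit of the 8 libraries, whose groups share none. The change at 24 h was more negative than that after knockdown for 17 members and more positive for 4, against 13.2% and 9.45% of all 20795 genes and 22.7% in either direction, with a median difference of -0.22 for the members and -0.037 for all genes. HSPA8 differed by -0.54 ± 0.065 (adjusted p = 2.47e-06), HSP90AB1 by -0.41 ± 0.062 (adjusted p = 4.35e-05), HSPD1 by -0.57 ± 0.090 (adjusted p = 0.000218) and DNAJB4 by -0.57 ± 0.13 (adjusted p = 0.0032). The more positive ones were HSPB8 (1.12 ± 0.13, adjusted p = 1.68e-06), BAG1 (0.66 ± 0.14, adjusted p = 0.00706), BAG3 (0.41 ± 0.098, adjusted p = 0.00448) and HSPB1 (0.23 ± 0.075, adjusted p = 0.0281). HSPH1, lower in both, did not differ at the threshold (-0.096 ± 0.075, adjusted p = 0.406), and HSPA9 neither (-0.016 ± 0.069, adjusted p = 0.907). BAG1 lost this call without shFOXA1 replicate 1 (adjusted p = 0.0965) and without shFOXA1 replicate 2 (adjusted p = 0.125), BAG3 without shCtrl replicate 2 (adjusted p = 0.0562), and HSPB1 without each of 5 libraries (without dTAG_24h replicate 1 at 0.15, adjusted p = 0.236). The hairpin and degron cells also differ in their constructs, and the time since the hairpin was delivered is not given. FOXA1 mRNA stayed at 299 and 305 CPM in shFOXA1 cells, against 402 and 435 CPM in shCtrl cells. FOXA1 protein was not measured in these libraries. These differences, and any in the depth of FOXA1 loss, cannot be told apart from the way FOXA1 was lowered.

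**Figure D4:**
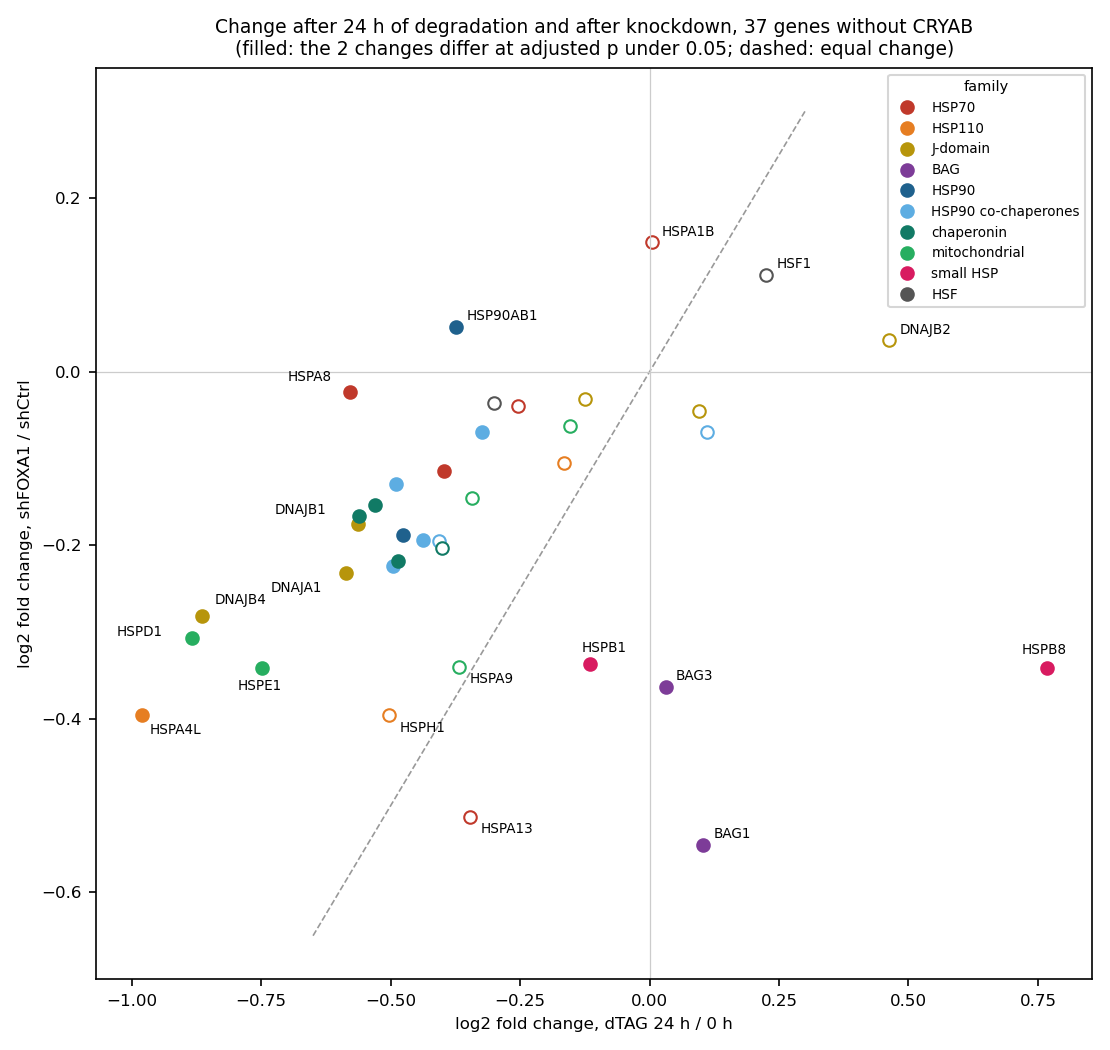
Log2 fold change at 24 h against 0 h (horizontal axis) and in shFOXA1 against shCtrl (vertical axis) for 37 of the genes, coloured by family; CRYAB, at 1.57 and 2.56, lies outside the axes, the dashed line is equal change and filled points differ between the 2 changes at an adjusted p under 0.05. Most filled points lie left of the dashed line, and HSPB8, BAG1, BAG3 and HSPB1 lie right of it.

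In R219S cells the members moved in both directions. Of the 38, 17 rose and 8 fell, against 30.5% of all 13990 genes higher, 31.6% lower and 62.1% in either direction; with so many genes called, the share of members lower was below the background and that of members higher above it. The median was 0.064 for the members and 0.0034 for all genes. The libraries of R219S and WT cells did not overlap for 34 members, against 79.4% of all genes. The rises took in the inducible and constitutive HSP70 genes with their main J-domain partners, 3 of 4 chaperonin subunits and 2 of 3 small heat shock proteins. The falls included HSP90AA1, 2 of 6 HSP90 co-chaperones, HSPD1 and HSF2.

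HSPB8 changed most, with 14.8 and 13.2 CPM in R219S cells and 2.20 and 3.04 CPM in WT cells (2.44 ± 0.13, adjusted p = 5.1e-59). CRYAB had 0.934 and 1.52 CPM in R219S cells and 0.597 and 0.450 CPM in WT cells (1.21 ± 0.37, adjusted p = 0.00214). For HSPA1B the levels were 171 and 163 CPM in R219S cells and 78.8 and 74.4 CPM in WT cells (1.12 ± 0.045, adjusted p = 5.92e-98). HSPA1A, counted apart from it with 29 and 36 counts in R219S cells and 23 and 17 counts in WT cells, changed by 1.16 ± 0.35 (adjusted p = 0.00185), and the sum of the pair by 1.12. In each of these genes both R219S libraries were above both WT libraries. HSPA8 had 1637 and 1626 CPM in R219S cells and 929 and 910 CPM in WT cells (0.83 ± 0.036, adjusted p = 1.73e-86). DNAJB1 had 107 and 104 CPM in R219S cells and 71.1 and 71.1 CPM in WT cells (0.56 ± 0.047, adjusted p = 4.87e-29). DNAJA1 had 281 and 277 CPM in R219S cells and 205 and 203 CPM in WT cells (0.45 ± 0.039, adjusted p = 9.6e-27). HSPA8 and these J-domain partners were thus higher in both R219S libraries. HSPH1 (0.39 ± 0.049), BAG1 (0.38 ± 0.041) and CHORDC1 (0.35 ± 0.062) rose as well.

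HSF2 had 22.3 and 24 CPM in R219S cells and 31.1 and 33.1 CPM in WT cells (-0.47 ± 0.071, adjusted p = 7.43e-10). HSF1 had 121 and 118 CPM in R219S cells and 118 and 124 CPM in WT cells, and the groups overlapped (-0.016 ± 0.044, adjusted p = 0.773). With the correction for GC content and length, HSF1 was called higher. HSPD1 had 1226 and 1251 CPM in R219S cells and 1626 and 1586 CPM in WT cells (-0.38 ± 0.035, adjusted p = 2.9e-23). HSPE1, with its low level in this table, had 5.88 and 4.90 CPM in R219S cells and 6.69 and 6.23 CPM in WT cells and did not pass (-0.28 ± 0.14, adjusted p = 0.0724). HSP90AA1 had 1163 and 1206 CPM in R219S cells and 1380 and 1360 CPM in WT cells (-0.21 ± 0.036, adjusted p = 2.36e-08). HSP90AB1, at 1818 and 1795 CPM in R219S cells and 1881 and 1836 CPM in WT cells, did not pass (-0.041 ± 0.035, adjusted p = 0.303), nor did TCP1, at 370 and 381 CPM in R219S cells and 378 and 368 CPM in WT cells (0.0076 ± 0.038, adjusted p = 0.874). HSP90AA1 and HSPD1 were thus lower in both R219S libraries, while the ranges of TCP1 met. Of the 25 calls, 21 held under every alternative; CRYAB lost its call without R219S replicate 2 (0.80, adjusted p = 0.204) and under DESeq2 (adjusted p = 0.0789), and HSPA1A under DESeq2 (adjusted p = 0.0635).

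Side by side, HSPA8 changed by -0.58 at 24 h, -0.13 at 1 h, -0.023 after knockdown and 0.83 in R219S cells, and DNAJA1 by -0.59, -0.26, -0.23 and 0.45 in the same order. HSP90AA1 was lower in all 4, by -0.48, -0.14, -0.19 and -0.21. The 24 h and 1 h values share the 0 h libraries. The knockdown value passed narrowly and lost its call under 7 of 12 alternatives. HSPD1 was at -0.88, -0.019, -0.31 and -0.38. The 7 genes with runs of 3 heat shock units had 0 higher and 5 lower at 1 h (median -0.13), and the 26 others with a window had 3 higher and 4 lower (median -0.042). At 24 h the counts were 0 higher and 6 lower of the 7 (median -0.48), and 2 higher and 20 lower of the 26 (median -0.36). After knockdown they were 0 higher and 3 lower of the 7 (median -0.069), and 0 higher and 14 lower of the 26 (median -0.20), so that here the genes with runs of 3 had the median nearer to 0. In R219S cells they were 4 higher and 2 lower of the 7 (median 0.11), and 12 higher and 5 lower of the 26 (median 0.068). These groups of genes were small and no test of their difference was made.

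A wider set of 91 other chaperone-system genes in 6 lists was also counted. At 24 h, 43 of the 84 tested fell and 14 rose (median -0.14), where 24.8% of all genes were lower and 22.1% higher. The lists differed: of the 23 other J-domain genes, 8 fell and 5 rose, with a median of 0.045. Other HSP70 and HSP110 genes had 5 of 10 lower and 2 higher, and other HSP90 genes 6 of 11 lower and 3 higher. Mitochondrial genes had 8 of 15 lower and 1 higher, and small heat shock and related genes 5 of 10 lower and 2 higher. Among other chaperonin and prefoldin genes, 11 of 15 fell and 1 rose, led by the subunit CCT6A, with 316 ± 8.78 CPM at 24 h and 473 ± 13.4 CPM at 0 h (SD, n = 2 each; -0.58 ± 0.037, adjusted p = 1.32e-14). HSPA2, an HSP70 best known from the testis, had 4.74 ± 0.222 CPM at 24 h and 17.5 ± 1.26 CPM at 0 h (-1.88 ± 0.11, adjusted p = 3.17e-15). The small heat shock protein HSPB6 had 60 ± 1.71 CPM at 24 h and 106 ± 2.25 CPM at 0 h (-0.82 ± 0.046, adjusted p = 9.85e-16). These 3 genes were thus lower at 24 h. AHSA2P, the most changed gene of the other HSP90 list, rose, with 161 ± 7.05 CPM at 24 h and 93.8 ± 0.862 CPM at 0 h (0.78 ± 0.043, adjusted p = 5.95e-16). At 1 h, 7 of the 84 fell and 11 rose (median 0.0057), close to the 9.12% of all genes lower and 10.7% higher. The stress-inducible HSPA6 was among those that fell, with 1.16 ± 0.188 CPM at 1 h and 2.08 ± 0.156 CPM at 0 h (-0.84 ± 0.27, adjusted p = 0.0149). After knockdown, 10 of the 84 fell and 5 rose (median -0.059), where 12.3% of all genes were lower, a share close to that of the list, and 11.3% higher. HSF4, a heat shock factor best known from the lens, had 48.5 ± 2.03 CPM in shFOXA1 cells and 30.4 ± 0.771 CPM in shCtrl cells (0.68 ± 0.077, adjusted p = 0.000111). In R219S cells, 31 of the 85 rose and 18 fell (median 0.078), where 30.5% of all genes were higher, close to the share of the list, and 31.6% lower. The androgen-responsive HSP90 co-chaperone FKBP5 had 841 ± 142 CPM in shFOXA1 cells and 306 ± 6.66 CPM in shCtrl cells (1.46 ± 0.11, adjusted p = 0.000168), and 961 ± 24.7 CPM in R219S cells, against 1503 ± 24.2 CPM in WT cells (-0.64 ± 0.036, adjusted p = 2.6e-58). FKBP5 was thus higher after knockdown and lower in R219S cells. HSPA2 had 15.1 ± 2.78 CPM in R219S cells, against 48.4 ± 0.556 CPM in WT cells (-1.70 ± 0.073, adjusted p = 9.35e-84).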

How the data were processed

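The deposited tables held raw counts per gene from RNA sequencing: all values were whole, and no library totals were equal. Per the submitters' processing notes, STAR, featureCounts, DESeq2 and the build hg19 were used; versions, annotation and strand setting are not given in the sources used here, and no coordinates of counted genes are printed. The authors deposited the 0 h libraries in both time course tables with identical counts for all 57905 features. Ensembl identifiers were matched to symbols through GENCODE 29 (51996 of 57905 in the time course tables and 51995 of 57904 in the knockdown table). In the R219S file 26 gene names read as dates; no member is among the missing names. Sample columns not used numbered 0.

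Fits used edgeR 4.0.16 (R 4.3.3), 1 per comparison on its own libraries and all genes, with filterByExpr, TMM, estimateDisp, robust glmQLFit and the quasi-likelihood F test. A call needs a p under 0.05 after Benjamini-Hochberg adjustment over all genes tested. Each standard error was derived as the size of the log2 change divided by the root of its F value. Filtering left all 38 members in every fit. TPM used GENCODE exon union lengths. The alternatives were DESeq2 1.42.0, RLE normalization, no filter, at least 1 CPM in 2 libraries, each library left out, a replicate block, a GC and length correction with mgcv 1.9.3 with and without that block, and HSPA1A and HSPA1B summed. For the joint fit of the 24 h and knockdown changes, the GC and length correction and the sum of HSPA1A and HSPA1B were not run. The script was tested on simulated data with known changes. Library totals of 21560090 to 38465155 counts and 2 libraries per group limit the precision; replicate counts differed by 2.04 to 4.04 times Poisson variance, and by 11.8 times in shFOXA1.

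The members, lists, named-gene rule and promoter motifs were chosen with earlier results of these data known. Per-library values are given for up to 8 called members with the largest change in each comparison and, throughout, for HSPA8, HSP90AA1, HSP90AB1, HSPD1, HSPE1, DNAJB1, HSF1 and TCP1; for the wider lists, the genes named are among the most changed called gene of each list, and 1 such gene is not reported here. Further members are given by value alone.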

Additional observations from a re-analysis of the deposited data

Results flagged for a closer look

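For 21 of the 38 genes, the change after 24 h of degradation differed from the change after knockdown by the joint test, at an adjusted p under 0.05 with edgeR. Values are the 24 h log2 fold change minus the knockdown log2 fold change. In the HSP70 system the differences were -0.54 for HSPA8, -0.27 for HSPA14 and -0.57 for HSPA4L. The J-domain proteins DNAJB4, DNAJB1 and DNAJA1 differed by -0.57, -0.38 and -0.34. The HSP90 genes HSP90AB1 and HSP90AA1 differed by -0.41 and -0.28, and their co-chaperones FKBP4, AHSA1, CHORDC1 and PTGES3 by -0.35, -0.26, -0.24 and -0.23. The chaperonin subunits CCT3, CCT5 and TCP1 differed by -0.39, -0.37 and -0.26, and the mitochondrial HSPD1 and HSPE1 by -0.57 and -0.40. The 24 h change was more positive than the knockdown change for HSPB8 by 1.12, BAG1 by 0.66, BAG3 by 0.41 and HSPB1 by 0.23. Of these, HSPB1 was lower both at 24 h and after knockdown. BAG1 and BAG3 were lower after knockdown and did not pass the test at 24 h. The joint-test calls of HSPA14, HSPB1, BAG1, BAG3, CHORDC1, AHSA1, PTGES3 and TCP1 were lost under at least 1 of the 13 alternatives run. CHORDC1 lost its call under 11 of these and HSPA14 under 7, against 1 for BAG3. The other 13 calls were kept under all alternatives run. The correction for GC content and length was not run on the joint fit.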

How the results depend on the processing

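No choice of scaling moved the median of all genes by over 0.1. After knockdown, the 1 member higher became 0 with DESeq2, which gave CRYAB no adjusted p, and 0 with at least 1 CPM in 2 libraries, where CRYAB was not tested; leaving out a library gave 1 to 3 higher and 4 to 22 lower, and the replicate block 10 lower. At 1 h, 6 members higher became 2 with the GC and length correction, 3 with that correction and the replicate block, and 2 to 5 with a library left out (2 without dTAG_1h replicate 2); those lower ran from 7 to 11. At 24 h, 4 higher became 7 with the replicate block. Members with a higher change at 24 h than after knockdown ran from 2 (without shCtrl replicate 2) to 5, and with a lower change from 12 to 20. Other counts of members stayed within 1.5 times. Direction turned, with the GC and length correction alone and with the block, for HSPB1 at 1 h (-0.096 and -0.0959), HSF1 at 1 h (-0.0505 and -0.0502), DNAJA2 at 24 h (0.0388 and 0.0381) and HSF1 in R219S cells (0.0867 and 0.0868). With the correction, HSPB1 at 1 h was called lower, where the main fit called it higher. HSF1 in R219S cells was called higher with it, where the main fit made no call. HSF1 at 1 h and DNAJA2 at 24 h lost their calls. The cause was not tested. Among all genes, 4506 called after knockdown became 2421 and 1713 without shCtrl replicate 1 and 2, and 6793 without shFOXA1 replicate 1; 3850 called at 1 h became 1851 with DESeq2, and 2428 and 2232 without dTAG_1h replicate 1 and 2. Same-numbered libraries did not deviate together (correlations of -0.0464 to 0.0698), so the numbers were not taken as pairing. Counts of members with the replicate block are given only here. The block is also among the alternatives wherever calls are said to be held or lost under the alternatives.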
